A study of Homo sapiens with 5 samples.

Results

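This account sets the effect of SNW1 siRNA on intron retention against the effect of degrading WBP11, intron by intron. The members are 13028 introns of 5051 genes that both tables of deposited retention values list at the same chromosome, start, end and strand, and that had an intron depth plus spliced reads of at least 10 in all 4 libraries. They were drawn from 13420 introns listed in both tables, out of 24077 in the SNW1 table, 22471 in the auxin table and 34560 in any of the 3 tables of the series. All libraries were polyA RNA from DLD-1, a human colorectal adenocarcinoma line. Cells described as DLD-1 LacZeo received 100 nM SNW1 siRNA for 72 h, and their control is labelled as untreated but called control RNAi in the file header. In the second comparison both libraries received 500 µM auxin for 48 h and are labelled DLD-1 LacZeo osTIR1, osTIR1 being the plant receptor through which auxin triggers degradation of AID-tagged proteins. The series design adds that the WBP11 line lacks endogenous WBP11 and carries an AID-tagged WBP11 transgene, so this line and its control differ in more than the loss of the protein, and the effect of the line and that of WBP11 loss cannot be told apart. The comparisons share no library. Each group had 1 library, so no difference has a replicate check, no test was possible, and the intervals given cover counting error only.

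Introns are removed by the spliceosome, which assembles on the exon and intron boundaries, is rearranged into its catalytic form and then joins the exons. SNW1, also known as SKIP, belongs to the proteins that enter with the activated spliceosome, and WBP11 is a spliceosome-associated protein that binds protein phosphatase 1 and the WW domain of PQBP1. When an intron is not removed and the RNA is still polyadenylated, reads cover the intron body, and the retention ratio gives the intron's depth as a percentage of that depth plus the spliced reads.

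Sequences are shown for some of the introns with the largest changes, since intron length differed with the direction of the comparison. They were taken from GENCODE release 29 transcripts (GRCh38, the hg38 build) that hold the intron within an exon, which was possible for 2609 members (20%). Among these, 2582 (99.0%) began with GT and ended with AG, and those 4 bases are in capitals in each line, written 5′ to 3′. The first 4 introns had the larger change after WBP11 degradation. All 4 were 79 to 90 bp long, and their GC content ran from 24.4% in LEMD3 to 59.3% in AP1G2.
CNOT11 intron 6, chr2:101269137-101269215, plus strand: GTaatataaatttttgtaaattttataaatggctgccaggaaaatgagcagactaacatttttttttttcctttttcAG
LEMD3 intron 11, chr12:65245775-65245860, plus strand: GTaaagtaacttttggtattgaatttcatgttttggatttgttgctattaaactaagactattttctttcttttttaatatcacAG
PGM2 intron 9, chr4:37847112-37847201, plus strand: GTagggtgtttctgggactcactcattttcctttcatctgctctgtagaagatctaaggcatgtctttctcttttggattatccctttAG
AP1G2 intron 13, chr14:23563503-23563583, minus strand: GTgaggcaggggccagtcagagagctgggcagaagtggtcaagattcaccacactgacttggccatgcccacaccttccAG
The next 4 had the larger change after SNW1 siRNA. They were 115 to 209 bp long, and their GC content ran from 45.8% in HINT2 to 77.4% in KRI1.
HINT2 intron 4, chr9:35813146-35813265, minus strand: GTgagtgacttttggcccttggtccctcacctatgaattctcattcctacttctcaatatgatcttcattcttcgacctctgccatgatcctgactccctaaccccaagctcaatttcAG
SAMD4B intron 15, chr19:39383292-39383498, plus strand: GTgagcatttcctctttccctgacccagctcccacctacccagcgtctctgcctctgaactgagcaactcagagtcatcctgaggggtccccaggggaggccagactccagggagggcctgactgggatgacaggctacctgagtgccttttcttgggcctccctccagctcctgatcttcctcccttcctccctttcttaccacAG
KRI1 intron 1, chr19:10565791-10565905, minus strand: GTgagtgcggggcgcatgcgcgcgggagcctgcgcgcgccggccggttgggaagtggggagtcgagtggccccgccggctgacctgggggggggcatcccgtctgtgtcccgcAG
CDCA5 intron 1, chr11:65083724-65083932, minus strand: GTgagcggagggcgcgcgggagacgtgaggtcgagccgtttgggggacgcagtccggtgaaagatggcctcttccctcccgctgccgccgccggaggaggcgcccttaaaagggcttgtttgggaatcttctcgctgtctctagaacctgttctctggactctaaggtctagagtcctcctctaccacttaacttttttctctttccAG
The last, at 77 bp and 57.1% GC, was retained in both depleted libraries.
ZFAND2B intron 6, chr2:219208349-219208425, plus strand: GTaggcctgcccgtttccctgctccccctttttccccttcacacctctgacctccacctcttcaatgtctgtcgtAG

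Retention was higher after either depletion, at sets of introns that overlapped in part. After SNW1 siRNA the ratio was higher by at least 10 percentage points, the size that counts as higher or lower here, at 2749 introns (21.1% of those compared) and lower at 48 (0.368%). After WBP11 degradation it was higher at 2227 (17.1%) and lower at 190 (1.46%). Both comparisons were higher at 1154 introns (8.86%), which is 42.0% of the introns higher after SNW1 siRNA and 51.8% of those higher after WBP11 degradation. Only 13 introns (0.0998%) were lower in both. The median change was 3.41 points after SNW1 siRNA, with quartiles of 1.36 and 8.58, and 1.61 points after WBP11 degradation, with quartiles of -0.25 and 6.20. Across the 13028 introns the changes had a Pearson r of 0.34 and a Spearman rho of 0.28. These describe introns that share 4 libraries and often a gene, and carry no test.

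The difference of differences, the SNW1 change minus the WBP11 change, had a median of 1.43 points and was above 0 at 64.2% of introns. An intron was called SNW1-larger or WBP11-larger where this difference was at least 10 points in size and its 95% interval, combined from the 4 Wilson intervals of the ratios, did not include 0. There were 1163 SNW1-larger introns (8.93%) in 809 genes and 792 WBP11-larger introns (6.08%) in 621 genes. The difference is signed, so a fall in the other comparison adds to it, and the change of the named factor need not be the larger in size. Of the SNW1-larger introns 1004 were higher after SNW1 siRNA, and of the WBP11-larger ones 779 were higher after WBP11 degradation. The interval reached a median of 9.03 points to each side, so smaller differences were mostly not detectable at this depth. The balance between the kinds depended on the scale. It was 911 to 935 when each comparison was centred on its own median, and 1804 to 457 or 1216 to 504 for 2-fold changes on the log2 scale with a pseudocount of 0.01 or 0.05. The median difference was -0.37 points after centring.

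**Figure D1:**
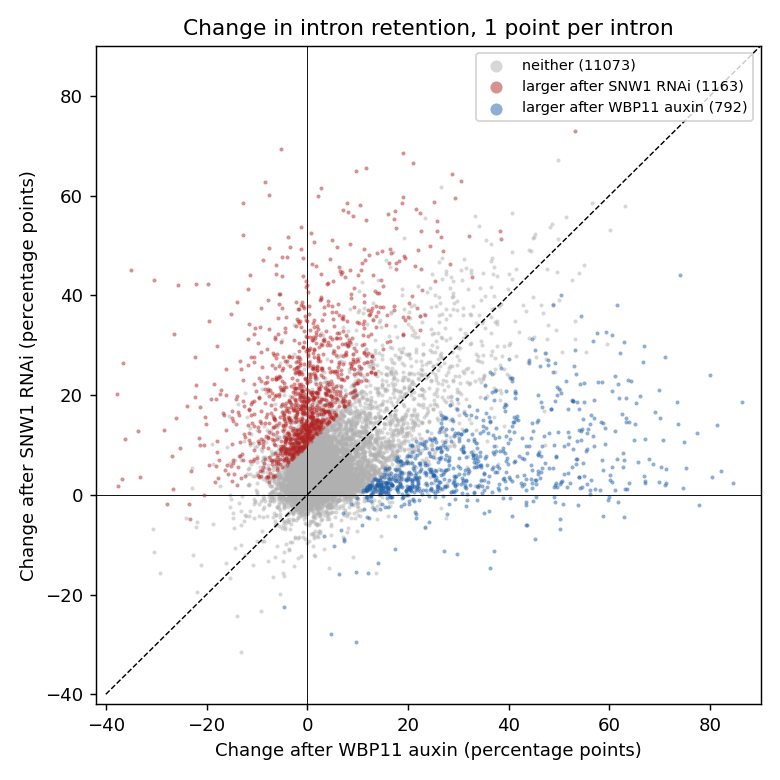
Change in the intron retention ratio after SNW1 siRNA (vertical axis, percentage points) against the change after WBP11 degradation (horizontal axis, percentage points), 1 point per intron. The 1163 SNW1-larger introns (red) lie along the vertical axis and the 792 WBP11-larger introns (blue) along the horizontal one, and the dashed line marks equal changes.

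The controls were not interchangeable. Their ratios were within 5 points of each other at 84.4% of introns, while 661 were at least 10 points higher in the auxin control and 101 in the RNAi control. SNW1-larger introns had a median ratio of 6.25% in the control and 26.7% after SNW1 siRNA, against 10.9% in the auxin control and 10.4% after WBP11 degradation. At WBP11-larger introns the medians were 2.46%, 8.27%, 4.45% and 36.7% in the same order. Of the SNW1-larger introns, 656 had controls within 5 points, and in 852 the depleted libraries themselves differed by at least 10 points in the same direction. The corresponding numbers for the WBP11-larger introns were 585 and 764. A fall of at least 10 points in the other comparison was part of the difference at 117 SNW1-larger introns and 13 WBP11-larger introns, and smaller falls were part of it at others, such as HINT2, DGKQ and ZSWIM8. These medians describe introns chosen on these ratios. Spliced reads at the members summed to between 2368783 after SNW1 siRNA and 3118098 after WBP11 degradation.

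The labels could be checked in part. Spliced reads of SNW1 at its listed introns, relative to all listed introns, were at 10.2% of the control after SNW1 siRNA (31 against 401 reads). Those of WBP11 were at 38.0% of the auxin control in the WBP11 line (103 against 235 reads at 1 intron). SNW1 reads were at 65.3% of the auxin control in the WBP11 line (335 against 445), and WBP11 reads at 196% of the control after SNW1 siRNA (1500 against 1014). The part of these shifts in the results was not tested. A degron acts on the protein, so the reads of WBP11 do not measure its loss. Neither gene had a member intron. Of 10 colon epithelial markers, CDH1, KRT18 and KRT19 each had a member, and none of 12 fibroblast and leukocyte markers did. The tables list only introns that reached a ratio of 1%, so a gene without an entry may still be expressed.

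Intron length separated the effects. Among 809 introns of up to 80 bp, 39.8% were WBP11-larger and 5.44% SNW1-larger, against 6.08% and 8.93% of all members. The 4278 introns of over 120 and up to 500 bp showed the opposite order, with 1.5% WBP11-larger and 14.8% SNW1-larger. WBP11-larger introns had a median length of 83 bp (quartiles 77 and 92), SNW1-larger introns of 221 bp (quartiles 126 and 452), and all members of 340 bp. On the log2 scale the WBP11-larger share of the shortest introns was 18.5% or 23.5% with the smaller or larger pseudocount.

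Very short introns were nevertheless retained after both depletions. Of the 55 introns of 66 to 70 bp, 80% were higher after SNW1 siRNA and 85.5% after WBP11 degradation. At 76 to 80 bp these shares were 32.7% and 62.0%, and at 86 to 90 bp they were 21.3% and 31.9%. Past 95 bp the order turned. At 201 to 300 bp, 30.8% of 1266 introns were higher after SNW1 siRNA and 14.7% after WBP11 degradation. Introns over 2000 bp changed least often, with 4.58% and 5.94% higher and 1.31% of each kind. The WBP11-larger share was 25.5% at 66 to 70 bp and highest, at 42.5%, at 71 to 75 bp. From there it went through 39.8% at 76 to 80 bp, 26.5% at 81 to 85 bp and 10.9% at 91 to 95 bp to 3.40% at 101 to 110 bp.

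**Figure D2:**
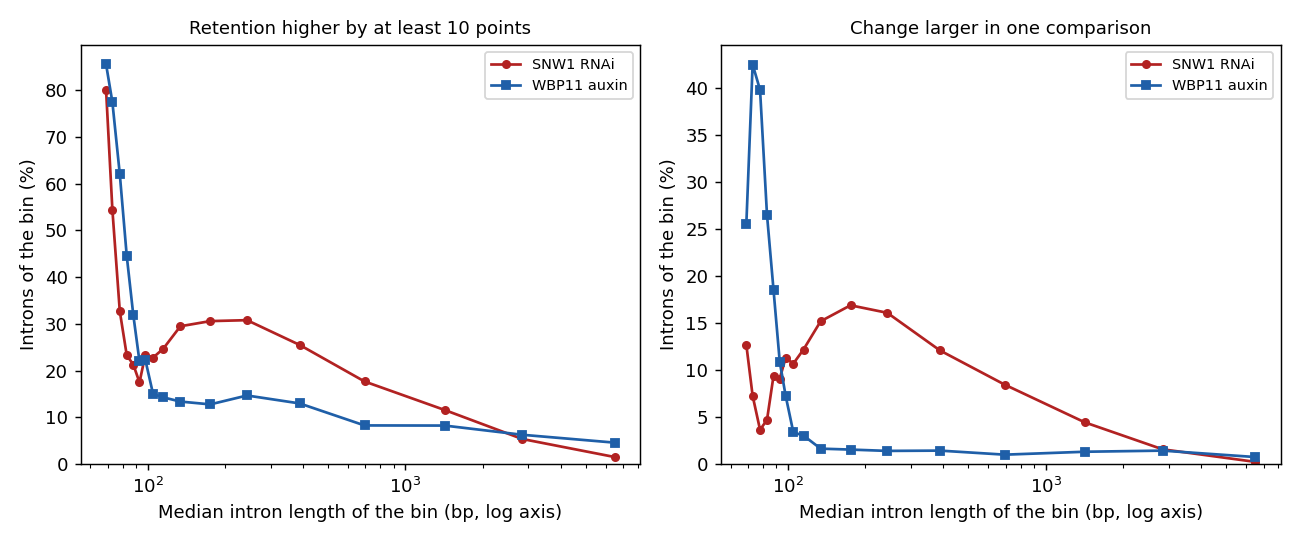
Share of introns (%) by median intron length of the bin (bp, log axis), for bins of at least 20 introns. Left, introns higher by at least 10 points. Right, SNW1-larger and WBP11-larger introns by the signed difference of differences. The WBP11 line (blue squares) is above the SNW1 line (red circles) up to 95 bp, and the SNW1 line is above it in the bins from 96 to 2000 bp in both panels.

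The same contrast held within genes. In 464 genes that had a member of up to 80 bp and another of over 120 bp, the short introns had the lower median difference of differences in 392 (84.5%), and the median gap was -14.96 points. In all, 172 genes held introns of both kinds, and in 157 of them the WBP11-larger introns had the shorter median length.

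Base composition of the neighbouring exons moved with the SNW1 effect more than with the WBP11 effect. Members were divided into quintiles by the mean GC content of the exons on either side, from at most 45.9% GC in the lowest to at least 62.3% in the highest. The share higher by at least 10 points rose from the lowest to the highest quintile in both comparisons. It went from 5.6% to 35.5% after SNW1 siRNA and from 11.5% to 25.5% after WBP11 degradation. The SNW1-larger share was 2.15% in the lowest quintile and 14.5% in the highest, and the WBP11-larger share was 6.55% and 7.37%. Among introns of over 120 and up to 500 bp, SNW1-larger introns made up 3.26% of the lowest quintile and 21.4% of the highest. For introns of up to 80 bp, the WBP11-larger share ran the other way, from 72.3% of 83 introns in the lowest quintile to 31.3% of 316 in the highest. In that lowest quintile 19.3% of the short introns were higher after SNW1 siRNA and 88.0% after WBP11 degradation. The GC content of the introns themselves was not compared, since sequence was at hand for 20% of members, a set selected for lying within an exon of another transcript.

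**Figure D3:**
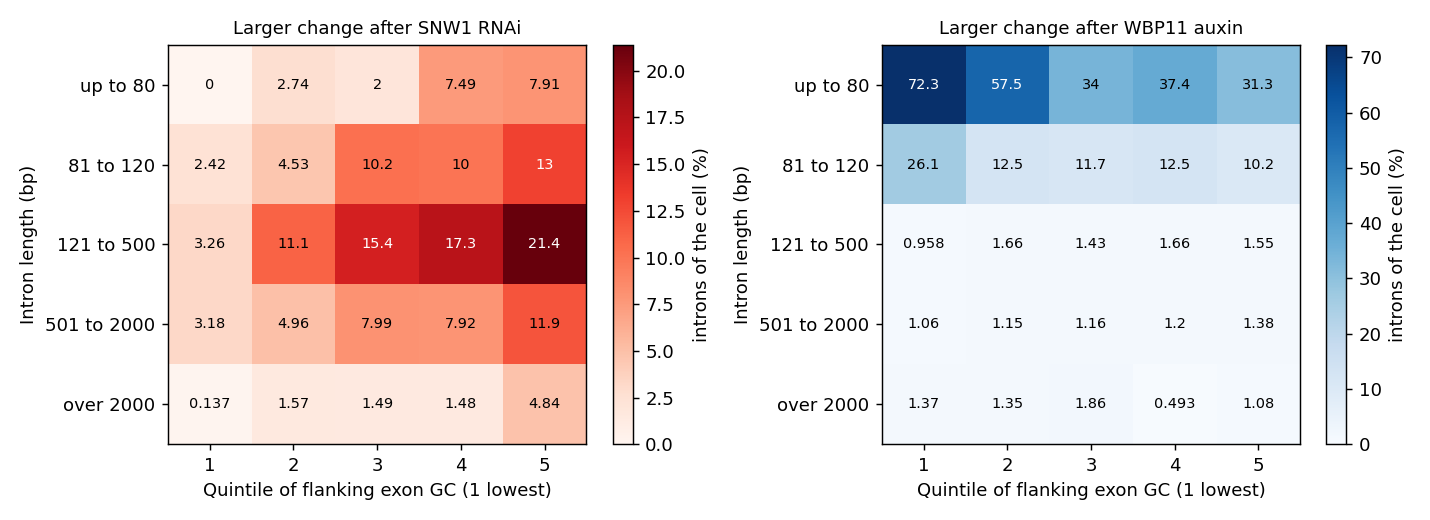
Share of introns (%, number and colour) that were SNW1-larger (left) or WBP11-larger (right), by intron length (rows, bp) and quintile of the mean GC content of the flanking exons (columns, 1 lowest). The SNW1 share is highest at over 120 and up to 500 bp with the most GC-rich exons (21.4%), and the WBP11 share at up to 80 bp with the most GC-poor exons (72.3%).

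The strongest WBP11-larger introns changed little after SNW1 siRNA. They are the introns with the lowest upper bounds of the difference of differences, so their values are a description. Intron 13 of 13 of OSBP, the oxysterol-binding protein that carries sterol from endoplasmic reticulum to Golgi, is 85 bp long (chr11:59576720-59576804). Its retention was 0.319% in the control and 5.03% after SNW1 siRNA, but 1.22% in the auxin control and 83.5% after WBP11 degradation. The difference of differences was -77.5 points (95% interval -80.9 to -73.3). In CNOT11, a subunit of the CCR4-NOT deadenylase, the 79 bp intron 6, which overlaps an annotated exon, was at 5.49%, 9.12%, 10.5% and 90.9% in the control, SNW1, auxin control and WBP11 libraries. The 90 bp intron 9 of PGM2, an enzyme of sugar phosphate metabolism, overlaps an exon too and stood at 3.64%, 5.01%, 3.38% and 77.9% in that order. Only the WBP11 library was high at these 3 introns.

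At intron 10 of PGAP6 (69 bp, chr16:374152-374220), a lipase for GPI anchors, SNW1 siRNA had an effect of its own. Retention was 2.03% in the control, 14.4% after SNW1 siRNA, 5.06% in the auxin control and 82.5% after WBP11 degradation. The intervals of the depleted libraries did not overlap. LEMD3, an inner nuclear membrane protein, had 2.70%, 4.75%, 4.13% and 75.2% in the same order at its 86 bp intron 11, and the RNA helicase gene DDX3Y had 5.65%, 8.09%, 7.94% and 75% at its 74 bp intron 14. Depths plus spliced reads at these introns and those of the preceding paragraph ran from 37.0 to 616 per library.

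The strongest SNW1-larger introns, those with the highest lower bounds, were 115 to 332 bp long. HINT2, a mitochondrial enzyme of the histidine triad family, had 7.83% retention of its 120 bp last intron (intron 4, chr9:35813146-35813265) in the control and 77.2% after SNW1 siRNA. The auxin control had 11.6% and the WBP11 library 6.43%, which gave a difference of differences of 74.5 points (60.8 to 85.2). The last intron of SAMD4B, a SAM-domain RNA-binding protein of the Smaug family, is 207 bp long and was at 22.2% and 64.2% in the RNAi pair but at 35.7% and 10.1% in the auxin pair. Both introns overlap an annotated exon. DGKQ, a diacylglycerol kinase, had 21.6%, 84.4%, 51.2% and 42.9% at its 327 bp intron 22 (chr4:960722-961048) in the control, SNW1, auxin control and WBP11 libraries. At each of these the SNW1 library alone was well above its control.

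Intron 1 of KRI1, a ribosome biogenesis factor, is 115 bp long (chr19:10565791-10565905) and was at 5.92%, 65.9%, 0.596% and 2.80% in the same order. The deposited KRI1 ratio rests on more reads than the larger spliced count given, and recomputing it from that count gave 72.2% after SNW1 siRNA and a difference of differences of 64.2 in place of 57.8 points. ZSWIM8, the substrate receptor of the ligase behind target-directed microRNA decay, stood at 4.63%, 54.3%, 10.7% and 7.28% at its 131 bp intron 5 (chr10:73789825-73789955). HDAC6, the tubulin deacetylase, had 24.9%, 67.9%, 48.0% and 17.6% at its 332 bp intron 14. There the WBP11 library held a depth plus spliced reads of 26.7, and the interval of the difference of differences ran from 45.9 to 94.8 points.

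**Figure D4:**
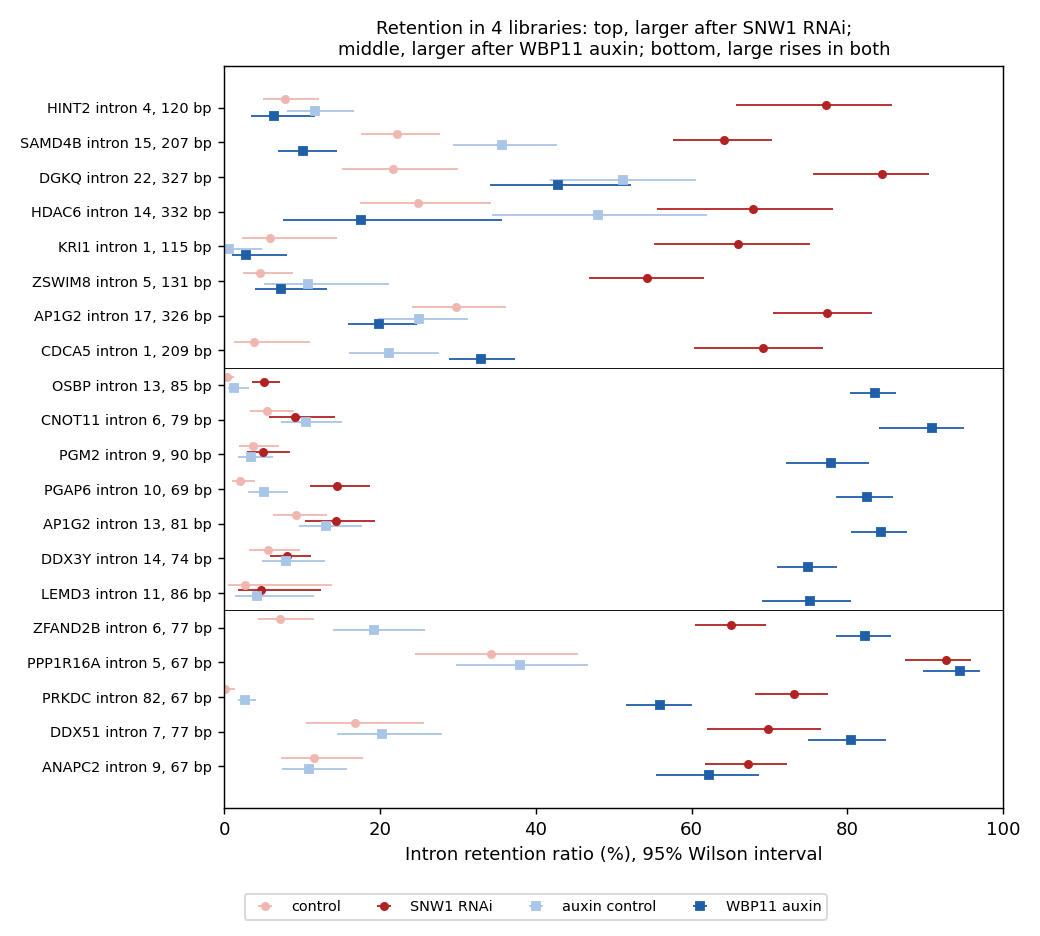
Intron retention ratio (%) in the 4 libraries (light and dark red circles, control and SNW1 siRNA; light and dark blue squares, auxin control and WBP11 degradation) at the 8 strongest SNW1-larger introns, 7 of the 8 strongest WBP11-larger introns and the 5 introns with the largest smaller rise, with 95% Wilson intervals. In the middle block the WBP11 library alone reaches 75% to 90.9%, while in the lowest block both depleted libraries are above 55%.

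The introns retained most strongly after both depletions were 67 to 77 bp long. ZFAND2B, a proteasome-associated ubiquitin-binding protein, had 7.13% retention of intron 6 in the control, 65.1% after SNW1 siRNA, 19.2% in the auxin control and 82.3% after WBP11 degradation. The ZFAND2B intron overlaps an annotated exon. DDX51, an RNA helicase of ribosome biogenesis, was at 16.8%, 69.8%, 20.3% and 80.4% at intron 7, and ANAPC2, the cullin-like subunit of the anaphase-promoting complex, at 11.5%, 67.2%, 10.9% and 62.2% at intron 9. The intervals of the difference of differences included 0 at all 3, running from -14.0 to 3.98, -21.0 to 6.08 and -6.74 to 15.1 points. The 67 bp intron 82 of PRKDC, the DNA-PK kinase of double-strand break repair, was at 0.120%, 73.1%, 2.70% and 55.9%. It was higher in both and SNW1-larger by 19.8 points (13.1 to 26.1), a call that was lost on the log2 scale with the pseudocount of 0.05. The 67 bp intron 5 of PPP1R16A, a regulatory subunit of protein phosphatase 1, was already at 34.2% and 37.9% in the controls and reached 92.7% and 94.4%.

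Falls in both comparisons were few and shallow in depth. DUSP2, a phosphatase of MAP kinases, had 23.1% retention of its 84 bp intron 1 in the control, 3.55% after SNW1 siRNA, 38.1% in the auxin control and 16.2% after WBP11 degradation, on depths plus spliced reads of 13 to 46.6. TTC14 intron 11, which overlaps an annotated exon, was at 57.1%, 40.4%, 40.5% and 25.1%, and intron 4 of the zinc finger gene ZNF316 at 36.3%, 20.7%, 41.0% and 11.8%. The 95% intervals of both changes at TTC14 and of the SNW1 change at DUSP2 included 0, so these falls were within counting error. Opposite changes of at least 10 points were found at 90 introns (0.691%) that were higher after SNW1 siRNA and lower after WBP11 degradation, and at 8 (0.0614%) in the other order. In the 2 strongest besides HDAC6 the auxin control was above the RNAi control. ZNF764 intron 1 was at 27.6%, 72.7%, 50.5% and 15.6%, with a depth plus spliced reads of at most 23.5 per library. The last intron of FUBP1, a single-stranded DNA- and RNA-binding regulator, lies in the 3′ UTR, overlaps an exon and was at 38.2%, 70.5%, 81.4% and 54.9%.

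AP1G2, the gamma-2 subunit of the AP-1 clathrin adaptor, was the only gene with an intron among the 8 strongest of each kind. Of its 13 members, introns 9, 16 and 17 were SNW1-larger and introns 6, 7, 12 and 13 WBP11-larger. Intron 17 (326 bp, chr14:23561636-23561961) was at 29.8% in the control, 77.4% after SNW1 siRNA, 25% in the auxin control and 19.9% after WBP11 degradation. Intron 13 (81 bp, chr14:23563503-23563583) was at 9.18%, 14.3%, 13.1% and 84.3% in that order, and the 77 bp intron 12 beside it at 1.29%, 7.86%, 2.07% and 43.2%. The short introns were not all alike. The 88 bp intron 15 stayed between 0.830% and 3.21% in the 4 libraries. At intron 16 (221 bp) the deposited ratios were 30.9%, 67.1%, 43.4% and 43.7%, and the ratio recomputed from the larger spliced count was 58.8% after WBP11 degradation, which lowered the difference from 35.9 to 26.4 points. The calls at introns 6, 7, 9 and 16 were lost on at least 1 of the log2 scales, while those at 12, 13 and 17 were not. Introns 12, 13 and 17 each carried a deposited warning in at least 1 library, however, so they drop out when introns with a warning are left out.

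CDCA5 encodes sororin, which protects sister chromatid cohesion. Its intron 1 (209 bp, chr11:65083724-65083932) was at 3.77% in the control, 69.2% after SNW1 siRNA, 21.2% in the auxin control and 33.0% after WBP11 degradation, a difference of differences of 53.7 points (40.4 to 64.7). The next introns went the other way. Intron 2 (78 bp) was at 0.307%, 2.75%, 3.01% and 26.6%, and intron 3 (85 bp) at 1.68%, 5.00%, 0.869% and 39.9%, with differences of -21.1 and -35.8 points. Intron 5 (165 bp), which overlaps an annotated exon, was SNW1-larger by 14.2 points (5.15 to 23.0). All 4 members of the gene therefore differed between the comparisons, the 2 long ones toward SNW1 and the 2 short ones toward WBP11. The call at intron 2 was lost on the log2 scale with the pseudocount of 0.01.

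TUBGCP6, a subunit of the gamma-tubulin ring complex that nucleates microtubules, had 14 members, of which introns 4 and 6 were SNW1-larger and introns 12, 17, 20 and 22 WBP11-larger. Intron 6 (156 bp) was at 4.18%, 34.4%, 3.74% and 11.3% in the control, SNW1, auxin control and WBP11 libraries. Intron 22 (85 bp) was at 2.82%, 21.7%, 14.1% and 63.3%, and intron 20 (170 bp) at 6.4%, 38.9%, 16.8% and 74.4%. Both were higher after either depletion, and on the log2 scale with a pseudocount of 0.01 their difference turned to favour SNW1 (0.48 and 0.35), as it did at intron 20 with 0.05 (0.08). The calls at introns 4, 6, 12 and 17 were lost on at least 1 log2 scale. Intron 20 was WBP11-larger although it was longer than intron 6, so length did not order the introns of this gene as it did those of CDCA5.

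**Figure D5:**
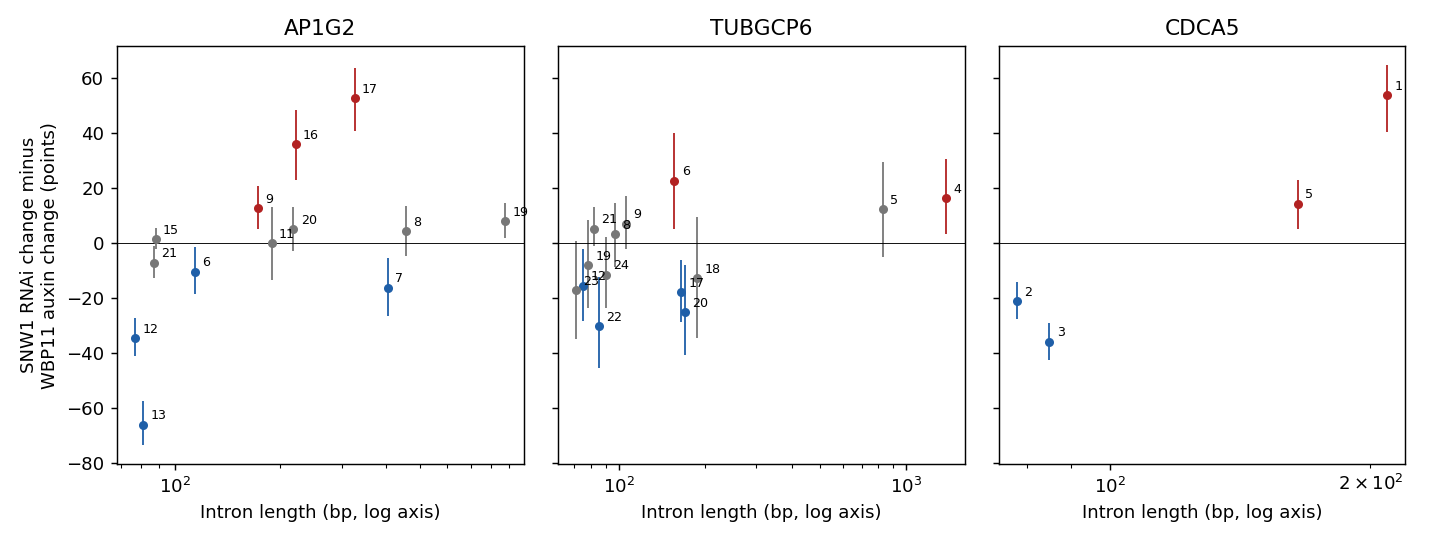
Difference of differences (SNW1 siRNA change minus WBP11 change, percentage points, with 95% interval) against intron length (bp, log axis) for the members of AP1G2, TUBGCP6 and CDCA5, numbered by intron. Red points are SNW1-larger, blue points WBP11-larger and grey points neither, and in AP1G2 the values run from -66.1 points at intron 13 to 52.7 at intron 17.

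Among the 705 genes with at least 5 members, CRACR2B, a regulator of store-operated calcium entry, had the highest median difference of differences (31.76 points). Its 283 bp intron 6 was at 35.5%, 76.7%, 52.7% and 40.8%, and a 152 bp intron numbered 6 in another transcript at 32.5%, 60.1%, 35.4% and 13.1%. Intron 4 went from 21.5% to 66.8% in the RNAi pair and from 32.8% to 50.6% in the auxin pair, a call lost on the log2 scales. At intron 7 the deposited 21.3% after WBP11 degradation became 61.1% when recomputed from the larger spliced count, and the difference of 36.0 points shrank to 9.53, so that call was lost. RFXANK, a regulator of MHC class II genes, followed with 27.01 points, and 3 of its 5 members were SNW1-larger. Its intron 7 (424 bp) was at 17.3%, 61.3%, 21.2% and 31.2%. TMEM175, a lysosomal ion channel, had a median of 20.32 points.

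XRN1, the cytoplasmic 5′ to 3′ exonuclease, had the lowest median (-21.34 points). Its 84 bp intron 7 was at 3.23%, 0.00%, 0.00% and 36.2% in the control, SNW1, auxin control and WBP11 libraries, and its 534 bp intron 24 at 3.84%, 4.11%, 2.63% and 35.7%. The latter call was lost on the log2 scale with the pseudocount of 0.01. The auxin control held a depth plus spliced reads of only 14.0 at intron 7 and 19.7 at intron 24. PLCD1, a phospholipase C, had a median of -15.67 points, and its 71 bp intron 13 was at 2.08%, 9.12%, 11.3% and 74.2%. Depth plus spliced reads at that intron were 15.5 after WBP11 degradation and 23.7 in the auxin control. COQ6, an enzyme of coenzyme Q synthesis, had -12.80 points. Its 83 bp intron 6 was at 1.30%, 9.28%, 9.41% and 42.3%, and this difference was 0.10 toward SNW1 on the log2 scale with a pseudocount of 0.01. The calls at PLCD1 intron 13 and COQ6 intron 6 were lost on both log2 scales. Most members of these 3 genes had intervals that included 0.

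Gene lists of mitotic and centrosomal functions held both kinds of intron. All list counts stand beside shares over all members of 8.93% SNW1-larger and 6.08% WBP11-larger, and no list was tested against the other members. The gamma-tubulin complex list had 28 members in 6 genes. Of these, 6 (21.4%) were SNW1-larger, in TUBG2, TUBGCP4 and TUBGCP6, and 4 (14.3%) were WBP11-larger, all in TUBGCP6. TUBG2, a gamma-tubulin, led with intron 7 (115 bp) at 17.8%, 39.0%, 34.0% and 25.7%. Among 45 introns of sister chromatid cohesion genes, 8 (17.8%) were SNW1-larger and 4 (8.89%) WBP11-larger, the latter led by the 81 bp intron 2 of the cohesin protector SGO1 at 2.02%, 0.00%, 0.821% and 44.3%. The anaphase-promoting complex and spindle checkpoint list had 3 and 5 of 44 (6.82% and 11.4%), with ANAPC4 intron 15 (83 bp) at 7.94%, 3.02%, 1.35% and 51.5%. Centriole and centrosome genes had 4 and 5 of 82 (4.88% and 6.10%), the latter close to the share of all members. The 77 bp intron 15 of CENPJ, a centriole elongation factor, was at 0.961%, 6.84%, 10.3% and 54.8%, and the 314 bp intron 18 of PCNT, pericentrin, at 4.39%, 28.9%, 6.07% and 3.78%. Median differences in the 4 lists were 2.57, 1.73, 0.97 and 1.5 points, beside 1.43 for all members.

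Lists of DNA metabolism rest on small counts as well. DNA replication genes had 2 SNW1-larger and 8 WBP11-larger introns of 63 (3.17% and 12.7%, against 8.93% and 6.08% of all members). MCM7, a subunit of the replicative helicase, led with its 75 bp intron 4 at 6.84%, 8.43%, 6.23% and 55.9%, while intron 44 of the polymerase gene POLE (155 bp) was at 0.00%, 13%, 3.72% and 1.57%. The MCM7 intron overlaps an annotated exon. Homologous recombination and Fanconi genes had 10 and 9 of 71 (14.1% and 12.7%). The 201 bp intron 12 of the nuclease gene MUS81 was at 24%, 55.1%, 34.1% and 31.3%, and the 77 bp intron 21 of FANCI at 3.75%, 1.89%, 2.58% and 53.3%. The median difference was -0.18 points for replication and 0.88 for recombination. For p53 pathway genes 4 of 39 (10.3%) were SNW1-larger and none WBP11-larger, led by the kinase gene PLK3 with intron 7 (114 bp) at 9.18%, 32.8%, 23.7% and 15.8%. The PLK3 intron overlaps an annotated exon too.

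Genes of the splicing machinery itself had shares of either kind between 0 and 10% in each of 4 lists, against 8.93% and 6.08% of all members. None of 20 members in U1 and U2 snRNP genes was SNW1-larger and 2 were WBP11-larger, in SF3B1 and SF3B2. The 85 bp intron 18 of SF3B2 was at 0.228%, 1.61%, 0.221% and 39.7% in the control, SNW1, auxin control and WBP11 libraries. The U5 and U4/U6 tri-snRNP list had 2 SNW1-larger and no WBP11-larger introns of 20, with intron 14 of the kinase gene PRPF4B (507 bp) at 57.1%, 83.5%, 78.1% and 41.6%. The PRPF4B intron lies in the 3′ UTR and overlaps an annotated exon. In the list of the PRPF19 complex and activated spliceosome, to which SNW1 belongs, 3 of 43 (6.98%) were of each kind. None of the 43 was higher after SNW1 siRNA by 10 points, against 21.1% of all members. Low counts were not confined to this list. They were 0 of 20 for U1 and U2 snRNP, 1 of 32 for SR protein and CLK kinase and 3 of 20 for tri-snRNP genes. Outside splicing, 4 of 58 proteasome and 1 of 17 ribosomal protein introns were higher. Within the PRPF19 list, RBM22 intron 5 (85 bp) was at 4.73%, 5.38%, 3.76% and 32.3%, and DHX38 intron 14 (354 bp) at 17.0%, 24.1%, 23.7% and 13.1%. The SNW1 change at DHX38 was 7.11 points, with an interval that included 0 (-3.16 to 16.4). Its WBP11 change of -10.6 points (-19.0 to -2.79) made up the larger part of the difference. SR protein and CLK kinase genes had 1 and 3 of 32. SRSF6 intron 1 (220 bp) was at 13.3%, 38.4%, 5.85% and 3.29%, and CLK1 intron 8 (79 bp) at 6.67%, 6.18%, 10.5% and 35.8%.

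Other lists served as comparison. Exon junction, export and nonsense-mediated decay genes had 3 SNW1-larger and 5 WBP11-larger introns of 48 (6.25% and 10.4%, against 8.93% and 6.08% of all members), with the 439 bp intron 8 of SMG9 at 11.1%, 32.1%, 9.63% and 4.40% and the 76 bp intron 5 of THOC6 at 12.7%, 41.0%, 15.6% and 77.8%. Proteasome genes had 1 and 6 of 58 (1.72% and 10.3%). Aminoacyl-tRNA synthetase genes had 5 of each kind among 57 (8.77%), which for SNW1 is close to the share of all members. PSME1 intron 7 (78 bp) was at 3.36%, 14.4%, 4.37% and 36.2%, AARS2 intron 16 (155 bp) at 7.02%, 45.0%, 17.0% and 15.7%, and RARS2 intron 15 (84 bp) at 0.630%, 3.28%, 1.65% and 37.6%. Ribosomal protein genes had 1 and 0 of 17. The WBP11-larger introns that led the lists were 75 to 85 bp long and the SNW1-larger ones 114 to 1124 bp. Among the leading introns given with values here, the calls at CENPJ, THOC6 and PSME1 were lost on both log2 scales.

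The separate WBP11 siRNA library, from the same cells and dose as SNW1 siRNA, listed 8601 of the members at sufficient depth. At 6 of the leading WBP11-larger introns, its ratio was 25.8% for OSBP, 55.6% for CNOT11, 36.1% for PGAP6, 65.1% for AP1G2 intron 13, 35.9% for DDX3Y and 35.8% for LEMD3. All 6 were above the SNW1 value, in introns chosen for a low SNW1 value and a high one after degradation. Over all 687 WBP11-larger introns it listed, however, its median was 7.68%, against 8.67% after SNW1 siRNA and 37.7% after WBP11 degradation. In this set 105 (15.3%) were at least 10 points higher after WBP11 siRNA than after SNW1 siRNA, and 64 (9.32%) at least 10 points lower. Among all 8601 these shares were 2.53% and 18.3%. At the 936 SNW1-larger introns the WBP11 siRNA median was 9.88% and the SNW1 siRNA median 28.4%, against 7.04% in the RNAi control. The median after degradation was 12%, against 11.7% in the auxin control. For introns of up to 80 bp the medians were 6.33% after WBP11 siRNA, 13.5% after SNW1 siRNA and 35.2% after WBP11 degradation. The RNAi control was at 3.27% and the auxin control at 6.49%. The order of the factors at short introns thus differed between the siRNA and the degron; method, line and degree of depletion cannot be told apart here.

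Matching removed introns listed in only 1 table. Of 10161 introns of sufficient depth in the SNW1 table alone, 1056 (10.4%) were higher after SNW1 siRNA, and of 8643 in the auxin table alone, 747 (8.64%) were higher after WBP11 degradation. Their median lengths were 716 and 912 bp, above that of the members, so the shares given hold for introns that reached 1% in both comparisons.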

How the data were processed

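Values for the 4 libraries came from 2 deposited tables, each of 1 depleted against 1 control library, and another table gave the WBP11 siRNA ratios. Per the file headers, the authors compared STAR genome alignments with IRFinder, and RSEM, bedtools and hg38 are named in the submitters' processing notes, without versions. The retention ratio is a deposited fraction, the intron depth a deposited coverage signal averaged over the intron, and the spliced reads a deposited count per intron. None was scaled between libraries. Depth and spliced reads come from the same library, which cancels its size in the ratio, while reads of overlapping exons can count as retention. In 1482 members (11.4%) a deposited ratio differed by over 1 point from depth over depth plus the larger spliced count, so it rests on another denominator.

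Introns were matched on chromosome, start, end and strand, annotated from GENCODE release 29, and kept at a depth plus spliced reads of at least 10 in all 4 libraries. The GC content of the flanking exons was the mean of both whole exons of 1 transcript. Wilson 95% intervals took that sum as the number of observations. Differences were combined by Newcombe's square-and-add method. It was tried on simulated binomial counts, the model that these intervals assume, so the trial does not check them on averaged depths. Reads can stem from the same molecule and depth is averaged over bases, so intervals cover counting error only. With 1 library per group no p-value was computed. Alternatives were other depth minimums and size rules, log2 ratios, median centring, 1 intron per gene, exon overlaps, warnings or unlike controls left out, exact spliced reads and no interval; recomputed ratios and the removal of unequal denominators were added after seeing the data. Python 3.11.15, numpy 2.4.6 and pandas 2.3.3 were used.

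The members and the 17 gene lists were chosen with earlier results of these data known. Named introns are those of WBP11, SNW1, TUBGCP6 and CDCA5; the 8 with the highest lower and the 8 with the lowest upper bound of the difference of differences; the 5 with the largest smaller rise, the 3 with the largest smaller fall and the 3 with the largest opposite changes; the leader of each list in either direction; and those of the 3 genes with the highest and the 3 with the lowest median. Of the introns this rule names, 1 is not reported here. Other introns of AP1G2 were added after their values were seen.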

Additional observations from a re-analysis of the deposited data

Results flagged for a closer look

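At several named introns the ratio was at least 10 points higher after SNW1 siRNA and at least 10 points lower after WBP11 degradation, each against its own control. The size given is the SNW1 change minus the WBP11 change in percentage points, and the difference was not tested, since each group had 1 library. It was 80 at ZNF764 intron 1, 73.4 at HDAC6 intron 14, 67.7 at SAMD4B intron 15, 62.9 at PRPF4B intron 14 and 58.7 at FUBP1 intron 20. In CRACR2B it was 53.1 and 49.9 at the introns numbered 6 in different transcripts and 36.0 at intron 7, and in TMEM175 it was 43.7 at intron 9. The fall at TMEM175 intron 9 was within counting error, since the WBP11 change of -10.4 points had a 95% interval of -25.9 to 5.29. At each of these 9 introns the auxin control had the higher ratio of the controls except CRACR2B intron 7, where it had 41.6% against 47.7%. The opposite direction at CRACR2B intron 7 was lost when the ratio was recomputed from the larger spliced count.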

How the results depend on the processing

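No paired analysis was possible because each group had 1 library. The numbers that follow are introns higher and lower after SNW1 siRNA, higher and lower after WBP11 degradation, and higher in both, in that order. A depth minimum of 50 left 1629, 13, 1439, 69 and 714. A size rule of 5 points gave 5072, 134, 3733, 536 and 2354. A rule of 20 points gave 1108, 6, 1092, 43 and 386, with 544 SNW1-larger and 455 WBP11-larger introns. Log2 ratios with a pseudocount of 0.01 gave 7703, 188, 4584, 787 and 3254, with 1804 SNW1-larger and 457 WBP11-larger introns, a median difference of 0.57 (log2) and 18.5% of introns of up to 80 bp WBP11-larger. With a pseudocount of 0.05, 504 were WBP11-larger, the median was 0.27 (log2) and the share at up to 80 bp was 23.5%. Of the calls in points, 926 SNW1-larger and 357 WBP11-larger introns were shared with the first log2 scale, and 888 and 451 with the second. Median centring turned the median difference to -0.37 points and gave 93 introns lower after SNW1 siRNA. Keeping 1 intron per gene gave 706, 22, 678, 62 and 280, with 317 SNW1-larger and 277 WBP11-larger introns. Leaving out introns with a warning gave 671, 8, 616, 35 and 343, with 286 and 240. The warnings, as named in the deposited values, are of a minor isoform or of non-uniform intron cover. KRI1 intron 1, DGKQ intron 22, HDAC6 intron 14 and OSBP intron 13 carried one in at least 1 library. HINT2 intron 4, SAMD4B intron 15 and CNOT11 intron 6 carried none. With controls within 5 points, 1638 were higher and 11 lower after SNW1 siRNA, 30 lower after WBP11 degradation, 618 higher in both and 656 SNW1-larger. Without the interval 1769 were SNW1-larger. Fewer introns or another size rule lower or raise a count by construction; the cause of the shift on the log2 scale was not tested. Among named introns with a call, directions reversed at TUBGCP6 intron 22 (0.481 with 0.01), TUBGCP6 intron 20 (0.349 with 0.01 and 0.0814 with 0.05) and COQ6 intron 6 (0.102 with 0.01). Of the values for named introns, 513 kept the call or stayed without one, 32 lost and 11 gained the call. A change of direction was looked for only at introns with a call. The share of SNW1-larger introns at over 120 and up to 500 bp stayed within 1.5 times of 14.8%, between 10.3% and 21.3%, in the 9 alternatives run for it.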

Other observations

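Introns flagged in the deposited annotation as overlapping a known exon, 645 members, had more differences of both kinds. Of these, 20.8% were SNW1-larger and 8.68% WBP11-larger, against 8.31% and 5.94% of the members without the flag. The overlaps given for named introns are this flag. It does not mark every overlap, since 2609 members lie within an exon of a GENCODE transcript, so the unflagged members include such introns. First introns were SNW1-larger in 13.3% of 555 and WBP11-larger in 1.62%, and internal introns in 8.66% and 6.61% of 10773. Of the 498 introns whose upstream exon ends in C, 12.2% were SNW1-larger and 3.82% WBP11-larger, and of the 1056 that follow a T these shares were 4.55% and 5.68%. Length and GC content of these groups were not held equal.

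Genes rich in both kinds were singled out after their values were seen. LAMB2, a laminin chain of basement membranes, had 4 SNW1-larger introns with a median length of 184 bp and 7 WBP11-larger ones with 83 bp among 24. ACADVL, a mitochondrial fatty acid dehydrogenase, had 6 with 266 bp and 5 with 82 bp among 15. In EDC4, a decapping scaffold, the 5 SNW1-larger and 2 WBP11-larger introns had the same median length of 84 bp, and in the endocytic adaptor HIP1R the WBP11-larger intron was the longer, 191 bp against 178 bp.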
